A study of Mus musculus with 6 samples.

Results

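The genes described here were 7 transcription factors of immature and naive T cells, *Tcf7*, *Lef1*, *Bach2*, *Satb1*, *Tox*, *Sox4* and *Ets1*, picked out by gene symbol. They were 7 of the 27998 genes listed in each library. They were measured by droplet-based single-cell RNA sequencing (10X Genomics Chromium 3′ v2 chemistry) of sorted invariant NKT (iNKT) cells, innate-like T lymphocytes whose receptors bind glycolipids presented by CD1d. The cells came from liver, spleen and lymph node of wild-type C57BL/6 mice aged 5 weeks, with 2 libraries per organ. In all organs, CD8-positive and B220-positive cells had been depleted before cells binding a TCR-β antibody and a CD1d tetramer were sorted, and no group carried a treatment or an engineered allele. The study names the samples of an organ biological repeats, but neither the number of mice in a library nor their sex was given. The p-values therefore apply to these libraries only. The tests pool the spread over many genes, so a small p-value does not measure a gene's own spread between libraries.

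*Tcf7* encodes TCF-1 and *Lef1* encodes LEF-1, related HMG-box proteins that bind the same kind of DNA site and can act with β-catenin. Both are needed early in T cell development, stay on in naive and memory-like T cells and are lowered in many effector cells. Several of the other factors are also linked to the immature state. *Bach2* encodes a repressor that restrains effector programmes, *Satb1* a chromatin organiser of thymocytes, *Tox* an HMG-box factor of CD4 lineage development, *Sox4* an SRY-related HMG-box factor of lymphocyte progenitors, and *Ets1* an ETS-domain factor with broad roles in T cells. *Ccr7* encodes the chemokine receptor that guides naive T cells and recent thymic emigrants into lymph nodes, and it served as the reference gene for the within-library comparisons.

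By Ensembl identifier in GENCODE vM21 (GRCm38), *Tcf7* (ENSMUSG00000000782) lies on chromosome 11 from 52252371 to 52283014 on the minus strand, and *Lef1* (ENSMUSG00000027985) on chromosome 3 from 131110471 to 131224356 on the plus strand. *Bach2* (ENSMUSG00000040270) lies on chromosome 4 from 32238804 to 32586108 (plus), and *Tox* (ENSMUSG00000041272) on the same chromosome from 6686353 to 6991557 (minus). *Satb1* (ENSMUSG00000023927) lies on chromosome 17 from 51736187 to 51833290 (minus), *Sox4* (ENSMUSG00000076431) on chromosome 13 from 28948919 to 28953713 (minus), and *Ets1* (ENSMUSG00000032035) on chromosome 9 from 32636221 to 32757820 (plus). All are protein-coding genes. *Gm26551*, a listed gene, overlaps *Tcf7* on the same strand, so reads of the shared stretch cannot be assigned to either with certainty.

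*Tcf7*, *Lef1* and *Sox4* were lower in liver than in spleen, and the stretches just before an annotated start of each are shown for that reason. They were taken from RefSeq windows on GRCm38.p6, each kept to its longest run outside GENCODE exons. The *Tcf7* stretch begins where an exon ends. Capitals mark the letters CTTCCGG, the reverse complement of the ETS-type motif CCGGAAG.
*Tcf7* (chr11:52282596-52282711, minus strand, between exons of longer transcripts): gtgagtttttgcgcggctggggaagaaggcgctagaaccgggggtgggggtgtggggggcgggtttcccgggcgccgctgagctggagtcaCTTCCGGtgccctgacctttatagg
*Lef1* (chr3:131110047-131110296, plus strand, upstream of the gene): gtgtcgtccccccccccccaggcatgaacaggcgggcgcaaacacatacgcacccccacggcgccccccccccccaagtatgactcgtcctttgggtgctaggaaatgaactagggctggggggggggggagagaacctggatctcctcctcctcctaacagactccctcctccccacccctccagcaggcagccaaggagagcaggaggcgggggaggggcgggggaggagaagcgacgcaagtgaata
*Sox4* (chr13:28953714-28953949, minus strand, upstream of the gene): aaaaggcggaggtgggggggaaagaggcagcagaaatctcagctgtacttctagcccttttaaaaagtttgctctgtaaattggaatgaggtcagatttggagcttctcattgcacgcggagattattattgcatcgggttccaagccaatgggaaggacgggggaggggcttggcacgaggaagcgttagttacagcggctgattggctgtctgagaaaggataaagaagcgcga
G and C made up 66.4% of the *Tcf7* and *Lef1* stretches shown and 50% of the *Sox4* stretch. Other stretches of *Tcf7* and *Lef1* are not shown. Among them, the stretch just outside the GENCODE vM21 bounds of *Tcf7* (chr11:52283015-52283264, minus strand) had 76% G and C and no match to either motif. It reads from an ATG to its end without a stop codon, so it may be coding sequence and not a promoter. RefSeq gave 13 windows (250 bases before to 50 bases after a start) for 5 of the 7 genes. On either strand, CCGGAAG occurred in 2 of these windows, 1 of *Tcf7* and 1 of *Bach2*, and in 8.86% of all 32851 windows. The TCF/LEF-type motifs CTTTGAA and CTTTGAT occurred in 0 of the 13 windows and in 8.65% of all windows. A match of letters is a description of the window and not a site.

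The 6 libraries held 16532 cells after filtering (2638 to 2861 per library) and 4758138 to 10870838 unique molecular identifiers (UMIs, 1 per captured transcript). The typical liver cell held more of them (medians of 3592 and 2880) than cells of the other organs (1470 to 1730.5), so shares of cells with a UMI were also computed on cells thinned to 1000 UMIs, which left out 1075 shallower cells. *Cd3e*, a T cell receptor complex gene, had at least 3256 UMIs in every library and *Zbtb16*, encoding the iNKT lineage factor PLZF, at least 258. Of other cell types, the 3 hepatocyte markers summed to at most 3 UMIs, and 19 cells in all carried at least 3 B cell or myeloid markers. Of the 2 regulatory T cell markers, *Foxp3* had 0 UMIs in the liver and spleen libraries and 1 and 2 UMIs in lymph node. The other, *Ikzf4*, had 38 and 30 UMIs in liver, 13 and 15 UMIs in spleen and 4 and 6 UMIs in lymph node. The 5 B cell markers summed to 2.50 to 16.4 CPM. The 6 myeloid markers summed to 119 CPM in lymph node library 2, of which *Lyz2* made 108 CPM (392 UMIs), against 1.11 to 24.9 CPM in the other libraries. The fit without that library was among those with 1 library left out, whose calls are given at the end as ranges. Any pair of libraries shared 6 to 20 barcodes. *Xist* had 5401 to 10404 UMIs in liver and spleen and 0 UMIs in lymph node, whereas 5 Y-chromosome genes summed to 1365 and 1582 UMIs in lymph node and to 0 elsewhere. Organ and sex therefore cannot be told apart in any comparison with lymph node.

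*Tcf7* was graded across the organs, highest in lymph node, intermediate in spleen and lowest in liver. Its level, in CPM (UMI counts scaled to a common library size, with TMM factors), was 74.1 and 53.0 CPM in liver, 121 and 112 CPM in spleen and 161 and 162 CPM in lymph node. No library of an organ overlapped with a library of another. *Tcf7* fell in liver against spleen by 0.87 on the log2 scale (SE 0.13, edgeR adjusted p = 1.9e-05) and against lymph node by 1.34 (SE 0.13, adjusted p = 1.4e-09). The step from lymph node to spleen was smaller (log2 fold change -0.47, SE 0.13, adjusted p = 0.011) and was not called without spleen library 2 (adjusted p = 0.089), lymph node library 1 (0.072) or lymph node library 2 (0.081), nor by DESeq2 (adjusted p = 0.0503). Per 100 cells thinned to 1000 UMIs, *Tcf7* had 4.57 and 3.26 UMIs in liver, 7 and 6.8 UMIs in spleen and 12.6 and 13.1 UMIs in lymph node, in the same order. At full depth the values were 19.7 and 11.4, 17 and 14.6, and 22.4 and 20.6 UMIs per 100 cells, and there liver library 1 exceeded both spleen libraries.

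*Lef1* had another order, with spleen at the top. It was at 133 and 141 CPM in liver, 200 and 227 CPM in spleen and 156 and 142 CPM in lymph node. The spleen libraries were above all others, while liver library 2 lay just below lymph node library 2. *Lef1* fell in liver against spleen by 0.64 (SE 0.12, edgeR adjusted p = 0.00011) and was higher in spleen than in lymph node by 0.52 (SE 0.12, adjusted p = 0.0016). That second difference was not called without lymph node library 2 (0.45, adjusted p = 0.063). Liver and lymph node were not told apart (log2 fold change -0.13, 95% interval -0.36 to 0.11, adjusted p = 0.42).

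*Sox4* and *Tox*, the other HMG-box genes, were both highest in lymph node. *Sox4* was at 2.41 and 1.30 CPM in liver (18 and 8 UMIs), 6.25 and 15.3 CPM in spleen and 35.7 and 38.1 CPM in lymph node. The organs did not overlap, and the spleen libraries differed from each other more than those of the other organs. *Sox4* fell by 4.26 on the log2 scale in liver against lymph node (SE 0.33, edgeR adjusted p = 6.3e-10), by 2.47 in liver against spleen (SE 0.39, adjusted p = 9.1e-05) and by 1.79 in spleen against lymph node (SE 0.28, adjusted p = 4.9e-05). Over the alternatives, the log2 fold changes went from -5.21 to -3.91 in liver against lymph node and from -3.01 to -1.70 in liver against spleen. In spleen against lymph node they went from -2.55 to -1.26. Few cells carried *Sox4* (liver 0.571% and 0.28%, spleen 0.806% and 1.66%, lymph node 4.28% and 4.00%).

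*Tox* separated lymph node from the other organs only. It was at 41.6 and 32.1 CPM in liver, 31.8 and 30.0 CPM in spleen and 84.9 and 93.2 CPM in lymph node. It fell by 1.27 in liver against lymph node (SE 0.14, edgeR adjusted p = 1.2e-08) and by 1.53 in spleen against lymph node (SE 0.16, adjusted p = 2.9e-09). Both liver libraries were above both spleen libraries, but the difference did not pass the test (0.26, 95% interval -0.06 to 0.59, adjusted p = 0.23).

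The remaining factors varied less. *Satb1* was at 402 and 379 CPM in liver, 457 and 469 CPM in spleen and 320 and 329 CPM in lymph node, without overlap between organs. Only the ends of that order were called, with spleen higher than lymph node by 0.51 (SE 0.11, edgeR adjusted p = 0.0012). Liver was not called against spleen (-0.25, 95% interval -0.47 to -0.02, adjusted p = 0.10) nor against lymph node (0.27, 0.04 to 0.50, adjusted p = 0.060), although the latter passed in 5 of 17 alternatives, among them the replicate block (adjusted p = 0.029) and the fit without liver library 2 (adjusted p = 0.048; lowest 0.017, highest 0.99). *Ets1* was at 534 and 518 CPM in liver, 661 and 557 CPM in spleen and 702 and 688 CPM in lymph node. It fell in liver against lymph node by 0.40 (SE 0.12, edgeR adjusted p = 0.0070), not called without lymph node library 1 (adjusted p = 0.057), while spleen lay between with differences of -0.21 (adjusted p = 0.19) and -0.19 (adjusted p = 0.30). *Bach2* was at 17.1 and 14.4 CPM in liver, 18.5 and 17.9 CPM in spleen and 12.5 and 13.5 CPM in lymph node. The libraries of the organs did not overlap, yet no comparison of *Bach2* was called, the largest being spleen over lymph node (0.48, 95% interval 0.01 to 0.95, adjusted p = 0.16).

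**Figure D1:**
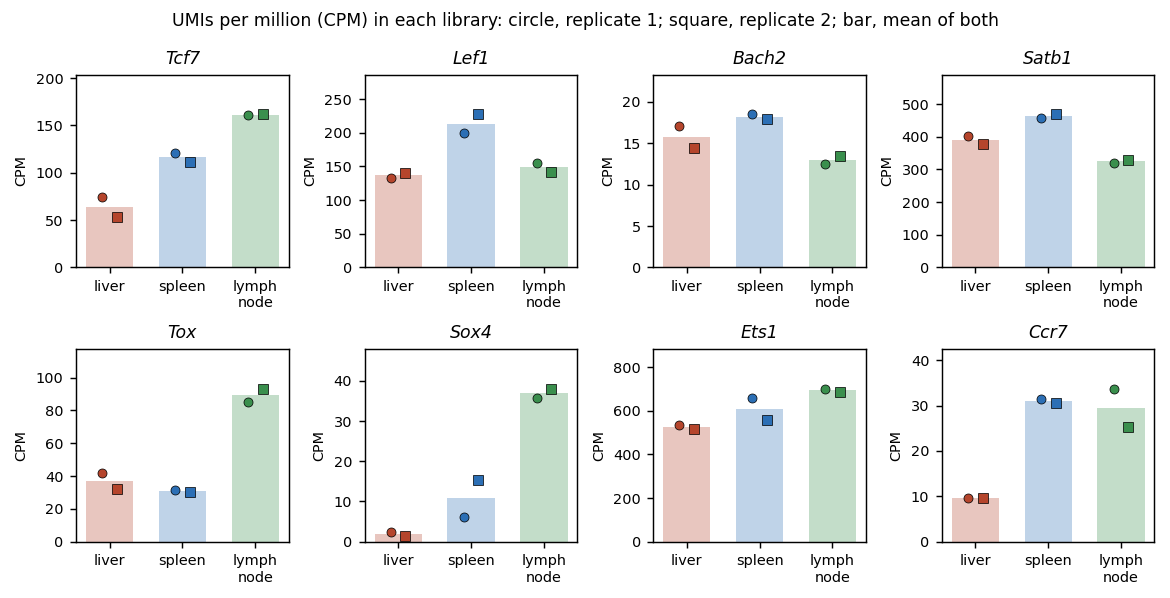
Level of each factor and of *Ccr7* in each library, in CPM (UMI counts scaled to a common library size). Circles are replicate 1, squares replicate 2 and bars the mean of both. *Tcf7* and *Sox4* rose stepwise from liver to lymph node, *Lef1* was highest in spleen, and *Tox* stood apart in lymph node.

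In counts, 3 of the 7 genes were lower in liver than in spleen, where 25.8% of all 10244 genes tested were called. Against lymph node, 4 were lower in liver (37.5% of all genes called). The count that was higher in liver was 0 in both by edgeR and by DESeq2, with 0 and 1 (*Satb1*) at an unadjusted edgeR p under 0.05. In spleen against lymph node, 2 were higher and 3 lower (18.2% of all genes called). The median log2 fold changes of the 7 were -0.25, -0.40 and -0.19, beside 0.020, 0.0063 and 0.0035 over all genes. The 3 comparisons share libraries and are not independent of each other. Fewer cells expressing a gene and less RNA per cell cannot be told apart in these sums.

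*Ccr7* itself was at 9.64 and 9.73 CPM in liver, 31.5 and 30.6 CPM in spleen and 33.8 and 25.4 CPM in lymph node. It fell in liver by 1.68 against spleen (SE 0.20, edgeR adjusted p = 2.5e-07) and by 1.61 against lymph node (SE 0.20, adjusted p = 1.0e-07). Among 18 genes of the naive and circulating T cell state, *Ccr7* included, 13 were lower and 1 higher in liver than in spleen (median -0.95). Against lymph node, 12 were lower and 1 higher in liver (median -0.77), whereas spleen and lymph node differed in 2 higher and 3 lower (median -0.08), beside 25.8%, 37.5% and 18.2% of all genes called. The largest falls in liver against lymph node were in *Dapl1*, a gene of naive T cells (-5.97, SE 0.53, adjusted p = 4.6e-09), in *Id3*, an inhibitor of E proteins (-2.73, SE 0.17, adjusted p = 2.7e-13), and in *Igfbp4* (-2.39, SE 0.29, adjusted p = 1.1e-06). The same 3 led in liver against spleen, at -2.69 (adjusted p = 0.022), -1.75 (adjusted p = 4.5e-08) and -2.18 (adjusted p = 1.8e-05). In spleen against lymph node the largest were *Dapl1* (-3.27, adjusted p = 5.9e-06), *Slamf6*, a surface receptor (1.68, adjusted p = 7.8e-12), and *Klf2*, a factor that drives egress receptors (1.00, adjusted p = 1.2e-07).

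Genes that act with TCF-1 and LEF-1 were called in both directions. Of 22 genes of the β-catenin pathway, 18 were tested, and 5 were higher and 3 lower in liver than in spleen (median 0.15), with the same counts in liver against lymph node (median -0.19), where 25.8% and 37.5% of all genes were called. *Axin2*, a negative regulator and common target of the pathway, was at -1.26 in liver (SE 0.18, edgeR adjusted p = 1.4e-06) and -1.17 in spleen (SE 0.20, adjusted p = 3.4e-05), each against lymph node. Between liver and spleen, where *Tcf7* fell by 0.87, *Axin2* was at -0.094 (95% interval -0.51 to 0.32, adjusted p = 0.77). *Ctnnb1*, encoding β-catenin, was higher in liver than in lymph node (0.87, SE 0.15, adjusted p = 1.4e-05), as was the kinase gene *Gsk3a* (0.91, SE 0.19, adjusted p = 0.00022). Against spleen, *Axin1* (0.78, adjusted p = 0.017) and *Gsk3a* (0.75, adjusted p = 0.0028) were higher and the corepressor gene *Tle4* lower (-0.73, adjusted p = 5.0e-05) in liver. In spleen against lymph node, 2 were higher and 2 lower (median -0.01, with 18.2% of all genes called), among them *Axin1* (-0.95, adjusted p = 0.0063) and *Apc* (0.65, adjusted p = 0.021).

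In each organ comparison, most of the tested relatives of the 7 factors were not called, and the calls went in both directions. Of 21 family members, 16 were tested, with 1 higher and 4 lower in liver than in spleen (median 0.03), 1 higher and 5 lower in liver than in lymph node (median -0.09) and 2 higher and 3 lower in spleen than in lymph node (median -0.04), where 25.8%, 37.5% and 18.2% of all genes were called. *Sox13*, an SRY-related factor of type 17 lymphocytes, was lower in liver than in lymph node (-4.46, SE 0.65, edgeR adjusted p = 3.9e-06) and than in spleen (-3.19, SE 0.79, adjusted p = 0.0038). *Tox2* was lower in liver than in lymph node (-2.50, SE 0.53, adjusted p = 0.00035). The ETS relative *Elk3* fell in liver against both other organs (-0.54, adjusted p = 0.0044, and -1.27, adjusted p = 2.8e-09) and in spleen against lymph node (-0.72, adjusted p = 0.00016). *Mafk*, a partner of BACH proteins, was higher in liver than in spleen (0.61, adjusted p = 0.024) and lower in spleen than in lymph node (-0.78, adjusted p = 0.0078), and the ETS relative *Elf4* was higher in spleen than in lymph node (0.73, adjusted p = 0.021).

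Factors of effector lineages were also called in both directions. Of 13, 11 were tested, with 4 higher and 2 lower in liver than in spleen (median 0.22), 6 higher and 3 lower in liver than in lymph node (median 0.30) and 3 higher and 3 lower in spleen than in lymph node (median -0.21), set against 25.8%, 37.5% and 18.2% of all genes. *Tbx21*, encoding the type 1 factor T-bet, was lower in lymph node than in liver (2.08, adjusted p = 2.9e-13) and spleen (1.60, adjusted p = 9.5e-10). *Irf4* was higher in liver (1.05 over spleen, adjusted p = 0.011, and 1.41 over lymph node, adjusted p = 0.00065), *Batf* was higher in liver than in spleen (0.67, adjusted p = 0.00011), and *Prdm1* was higher in spleen than in lymph node (0.81, adjusted p = 0.029).

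The organs differ in the kinds of iNKT cells they hold, so the factors were compared again within ranges of marker counts, which are not cell types. Cells with at least 2 of 10 type 17 markers and fewer than 2 of 11 type 1 markers numbered 2 and 9 per liver library, 20 and 13 per spleen library and 634 and 760 per lymph node library. The reverse range held 2509 and 2534 liver, 2410 and 2347 spleen and 892 and 867 lymph node cells. Many cells lay near the limit, since 483 and 506 lymph node cells had exactly 1 type 17 marker.

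After cells with a *Ccr7* UMI and cells with 2 or more type 17 markers were left out, *Tcf7* kept its order. It was at 64.6 and 47.8 CPM in liver, 111 and 104 CPM in spleen and 134 and 153 CPM in lymph node. The log2 fold changes were -0.93 in liver against spleen (edgeR adjusted p = 1.6e-05), -1.35 in liver against lymph node (adjusted p = 1.1e-08) and -0.41 in spleen against lymph node (adjusted p = 0.050). *Lef1* in these cells was at 129 and 140 CPM in liver, 189 and 222 CPM in spleen and 189 and 184 CPM in lymph node. Lymph node now lay with spleen (0.14, adjusted p = 0.54) and above liver (-0.47 in liver, 95% interval -0.72 to -0.22, adjusted p = 0.0039). *Satb1* was no longer called in spleen against lymph node (0.34, adjusted p = 0.053), while *Tox* (-1.84, adjusted p = 1.2e-09) and *Sox4* (-1.96, adjusted p = 8.3e-05) were. Of all 10044 genes tested in these cells, 24.4%, 31.4% and 12.2% were called in the 3 comparisons, in the order liver against spleen, liver against lymph node and spleen against lymph node.

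In the few cells with a *Ccr7* UMI, *Tcf7* was high in every organ. These were 47 and 29 liver, 98 and 90 spleen and 106 and 84 lymph node cells. Scaled among these sums, *Tcf7* was at 351 and 241 CPM in liver (63 and 25 UMIs), 273 and 215 CPM in spleen and 232 and 287 CPM in lymph node, with all organs overlapping. No comparison was called, and the intervals were wide (0.32, 95% interval -0.21 to 0.84, for liver against spleen, edgeR adjusted p = 0.64, and 0.25, -0.29 to 0.79, for liver against lymph node, adjusted p = 0.68). *Lef1* differed from this pattern. It was at 190 and 183 CPM in liver (34 and 19 UMIs), 426 and 381 CPM in spleen and 357 and 279 CPM in lymph node, and it fell in liver against spleen by 1.11 (SE 0.26, adjusted p = 0.0096). Against lymph node it was -0.78 (95% interval -1.33 to -0.23, adjusted p = 0.081). *Lef1* was the 1 member called among the 5 that could be tested in liver against spleen, where 2.00% of 3947 genes were called. In the other comparisons 0 of the 5 were called (6.16% and 2.91% of all genes), where 1 and 0 of them had an unadjusted p under 0.05, both counts by edgeR.

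**Figure D2:**
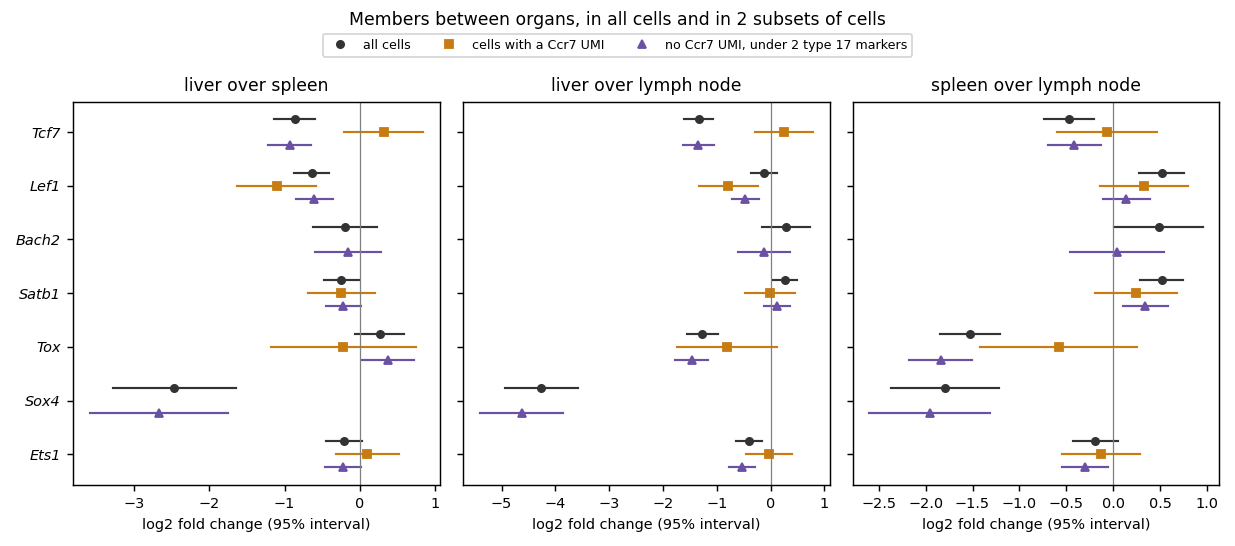
Log2 fold changes of the factors between organs with 95% intervals, in all cells (circles), in cells with a *Ccr7* UMI (squares) and in cells with no *Ccr7* UMI and fewer than 2 type 17 markers (triangles). *Bach2* and *Sox4* had too few UMIs to be tested in *Ccr7* cells. *Tcf7* was at -0.87 in liver against spleen in all cells and at 0.32 in *Ccr7* cells.

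The relation to *Ccr7* was tested within libraries, by comparing cells with and without a *Ccr7* UMI in 12 sums with library as a block. *Lef1* rose in cells with a *Ccr7* UMI. From cells without to cells with, it went from 136 to 167 and from 144 to 157 CPM in the liver libraries, from 190 to 391 and from 222 to 355 CPM in spleen, and from 150 to 327 and from 142 to 243 CPM in lymph node. It was higher in 6 of 6 libraries, by 0.74 on the log2 scale (SE 0.11, edgeR adjusted p = 1.1e-08). *Tcf7* went from 69.8 to 309 and from 51.4 to 207 CPM in liver, from 114 to 250 and from 107 to 201 CPM in spleen, and from 162 to 213 and from 162 to 250 CPM in lymph node. It too was higher in 6 of 6 libraries, by 1.16 on average, but with a spread between libraries that left it short of the threshold (SE 0.29, adjusted p = 0.083). It was called without liver library 1 (0.92, adjusted p = 5.8e-10), without spleen library 1 (1.15, adjusted p = 0.0030) and without lymph node library 1 (1.31, adjusted p = 0.0041).

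The other factors showed no such call. *Sox4* was at 0.85 (95% interval 0.17 to 1.54, edgeR adjusted p = 0.13), with only 0 to 17 UMIs in the sums of *Ccr7* cells. *Satb1* was at 0.20 (0.04 to 0.37, adjusted p = 0.14), *Tox* at 0.28 (-0.12 to 0.69, adjusted p = 0.52), *Bach2* at 0.26 (-0.47 to 0.98, adjusted p = 0.81) and *Ets1* at -0.09 (-0.24 to 0.07, adjusted p = 0.65). Thus 1 of the 7 was called, and 8.16% of all 8672 genes were. DESeq2 called 2, *Lef1* and *Tcf7*. Of the naive list 5 of 16 tested genes were higher and the others not called (median 0.43, beside -0.028 over all genes), led by *Actn1* (2.36, adjusted p = 1.1e-08) and *Klf2* (1.46, adjusted p = 0.0083). Of the effector list 1 of 11 was higher and 5 lower (median -0.31), led by *Prdm1* (-2.36, adjusted p = 0.010), *Bhlhe40* (-1.63, adjusted p = 1.4e-07) and *Tbx21* (-1.12, adjusted p = 2.7e-05). Of 16 β-catenin pathway genes (median 0.03) 0 were called by edgeR or DESeq2, and 0 had an unadjusted edgeR p under 0.05. Of 14 family relatives (median -0.08) 0 were called by either tool, and 2 had an unadjusted edgeR p under 0.05.

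Cells with a *Ccr7* UMI were deeper than the rest of their library, with medians of 6156 and 5262 against 3571 and 2873.5 UMIs for liver, 3022 and 2712.5 against 1706 and 1535 UMIs for spleen, and 2352 and 1735.5 against 1708 and 1467 UMIs for lymph node. When all cells were thinned to 1000 UMIs and split again, *Lef1* was still higher (1.10, edgeR adjusted p = 0.0030) and *Tcf7* was at 0.47 (adjusted p = 0.69), with 13 *Ccr7* cells left in liver library 1 and liver library 2, with 9, not used. B cell or myeloid markers stood out in 2 of 47 and 3 of 29 liver *Ccr7* cells and in 0 of those of other organs, and a *Cd8a* or *Cd8b1* UMI in 1 *Ccr7* cell of lymph node library 2 and 0 elsewhere. Without all such cells the values were 0.75 for *Lef1* (adjusted p = 5.8e-09) and 1.17 for *Tcf7* (adjusted p = 0.093). *Zbtb16* remained present in *Ccr7* cells, with 27 and 17 UMIs in the liver sums, 35 and 16 UMIs in the spleen sums and 22 and 9 UMIs in the lymph node sums.

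**Figure D3:**
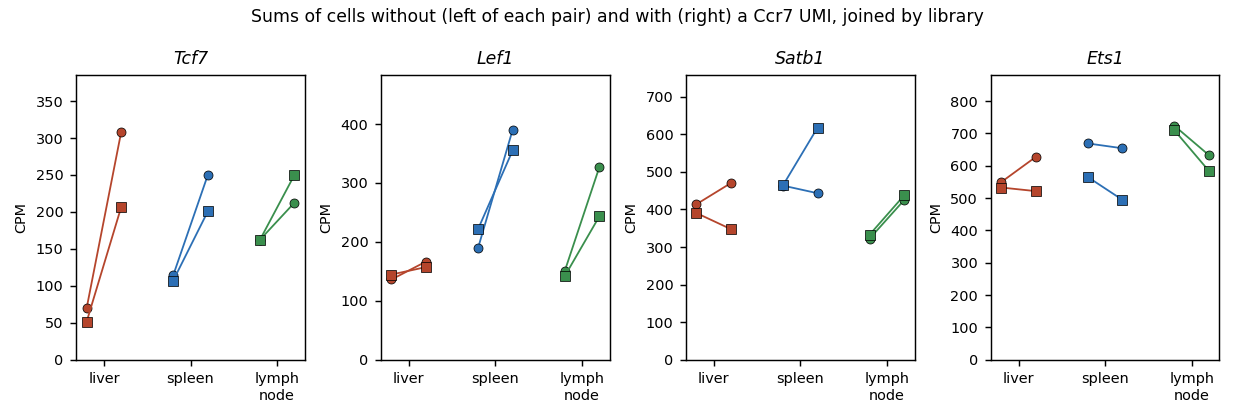
CPM of *Tcf7*, *Lef1*, *Satb1* and *Ets1* in the sums of cells without (left of each pair) and with (right) a *Ccr7* UMI. Lines join the sums of a library (circles replicate 1, squares replicate 2). *Tcf7* rises most steeply in liver (69.8 to 309 and 51.4 to 207 CPM) and *Lef1* in spleen and lymph node.

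The relation of *Tcf7* to *Ccr7* differed between organs. Within liver, *Tcf7* was higher in *Ccr7* cells by 2.10 (SE 0.21, edgeR adjusted p = 8.3e-20), within spleen by 1.03 (SE 0.19, adjusted p = 1.2e-05), and within lymph node it was at 0.50 (95% interval 0.11 to 0.90, adjusted p = 0.38). The difference between liver and lymph node was 1.60 (SE 0.28, adjusted p = 3.9e-06) and that between liver and spleen 1.07 (SE 0.27, adjusted p = 0.047), while spleen and lymph node were not told apart (0.53, 95% interval 0.00 to 1.06, adjusted p = 0.86). Without the B or myeloid and Cd8 cells, the differences were 1.66 (adjusted p = 1.3e-06) and 1.13 (adjusted p = 0.027). The liver to spleen difference was not called without liver library 1 (0.98, adjusted p = 0.66), liver library 2 (1.11, 0.073), spleen library 1 (1.25, 0.22), spleen library 2 (0.98, 0.54) or lymph node library 2 (1.06, 0.052). In thinned cells neither difference was called (1.89 against lymph node and 2.28 against spleen). There *Tcf7* was at 2.27 within liver and at -0.0041 within spleen, and neither was called. Only liver library 1 gave a liver value, from 13 *Ccr7* cells with 5 UMIs of *Tcf7*. Liver library 2, not used, had 0 UMIs of *Tcf7* in its 9 thinned *Ccr7* cells.

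*Lef1* had the contrasting profile, at 0.22 within liver (95% interval -0.21 to 0.66, edgeR adjusted p = 0.79), 0.87 within spleen (SE 0.15, adjusted p = 2.4e-06) and 0.98 within lymph node (SE 0.19, adjusted p = 5.9e-05). The spleen value was not called without spleen library 1 (0.62, adjusted p = 0.22) or in thinned cells (0.92, adjusted p = 0.31), nor the lymph node value without lymph node library 1 (0.78, adjusted p = 0.55). For *Tcf7*, the spleen value was likewise lost without spleen library 1 (0.85, adjusted p = 0.15). The differences of *Lef1* in liver against spleen (-0.65, 95% interval -1.16 to -0.14, adjusted p = 0.85) and against lymph node (-0.76, -1.30 to -0.21, adjusted p = 0.46) did not pass, so that the relation of *Lef1* was not shown to differ by organ. Of the 8672 genes, 3.90%, 4.61% and 0.911% were called within liver, spleen and lymph node, and 0.173% (liver against spleen), 0.519% (liver against lymph node) and 0.161% (spleen against lymph node) in the differences. *Tcf7* was thus the 1 member within liver, *Tcf7* and *Lef1* the 2 within spleen, and *Lef1* the 1 within lymph node.

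*Tcf7* and *Lef1* moved in opposite directions between type 17 and type 1 marker cells. This comparison used the spleen and lymph node libraries only, because the liver sums held 2 and 9 cells. In the order spleen library 1, spleen library 2, lymph node library 1 and lymph node library 2, *Tcf7* was at 204, 192, 211 and 181 CPM in type 17 marker cells and at 111, 108, 120 and 134 CPM in type 1 marker cells. The ranges did not overlap, and *Tcf7* was higher in type 17 marker cells by 0.64 (SE 0.13, edgeR adjusted p = 3.3e-05). *Lef1* was at 116, 76.6, 70.4 and 58.6 CPM in type 17 marker cells against 210, 237, 186 and 215 CPM in type 1 marker cells. It fell by 1.61 (SE 0.16, adjusted p = 2.9e-22), again without overlap.

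Other factors were lower in type 17 marker cells. *Bach2* had 8 and 6 UMIs in the lymph node type 17 sums against 16 and 27 UMIs in the type 1 sums, at 8.94 and 6.16 CPM against 15.9 and 29.5 CPM (-1.64 over all 4 libraries, SE 0.42, edgeR adjusted p = 0.0014). The spleen type 17 sums had 0 UMIs of *Bach2*, but with 29837 and 20245 UMIs in all they were too shallow to show a level like that of the type 1 sums (19.6 and 18.1 CPM). *Satb1* was at 262, 307, 271 and 263 CPM against 491, 492, 363 and 365 CPM (-0.48, SE 0.12, adjusted p = 0.00054). *Ets1* was at 553, 307, 670 and 635 CPM against 712, 606, 899 and 890 CPM (-0.47, SE 0.12, adjusted p = 0.00068), and both were lower in 4 of 4 libraries. *Tox* was barely past the threshold (-0.53, SE 0.19, adjusted p = 0.044), with 0 and 1 UMIs in the spleen type 17 sums, and changed sign in thinned cells (0.25, adjusted p = 0.77). *Sox4* was not called (0.44, 95% interval -0.11 to 0.99, adjusted p = 0.35).

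In counts, 6 of the 7 factors were called, 1 higher and 5 lower, where 15.1% of all 7529 genes were called (median -0.48 beside -0.018). These calls rest mainly on the lymph node libraries, since the spleen type 17 sums held 20 and 13 cells with 7 and 5 UMIs of *Tcf7*. Without lymph node library 1 only *Lef1* and *Bach2* of the 6 were called, with *Tcf7* at 0.55 (edgeR adjusted p = 0.38). Without lymph node library 2 only *Tcf7* and *Lef1* were called, with *Bach2* at -0.98 (edgeR adjusted p = 0.62). DESeq2, which gave no adjusted p for *Bach2*, called *Lef1* alone and gave *Tcf7* 0.71 (adjusted p = 0.055). The number of all genes called also moved between these fits (given at the end), so a loss particular to the factors was not tested. Beside the factors, the naive list had 3 higher and 5 lower of 15 (median -0.08), with *Slamf6* (-1.98, adjusted p = 8.3e-09) and the interleukin-7 receptor gene *Il7r* (1.33, adjusted p = 3.4e-26) at the head. Of 16 pathway genes 2 were higher and 1 lower (median -0.03), namely *Axin2* (1.46, SE 0.26, adjusted p = 5.0e-07), the WNT coreceptor gene *Lrp6* (0.86, adjusted p = 0.023) and *Tle4* (-0.79, adjusted p = 5.3e-05). Of 12 relatives *Elk3* alone was called (1.12, adjusted p = 9.3e-10, median of the list -0.07), and of 8 effector factors 3 were higher and 2 lower (median 0.08), led by *Bhlhe40* (-1.40, adjusted p = 5.6e-16), *Id2* (-0.70, adjusted p = 1.2e-05) and *Rora* (0.65, adjusted p = 1.5e-06).

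Over single cells the correlations with *Ccr7* were weak and are given as a description, because cells of a library share depth and are not replicates. Over log-normalised UMIs of all cells, the mean Pearson correlation over the 6 libraries was 0.087 for *Tcf7* (range 0.032 to 0.17) and 0.080 for *Lef1* (0.0070 to 0.15), and at most 0.034 for the other factors, beside 0.14 for *Klf2*. Spearman means were 0.099 and 0.081. For *Tcf7* the highest library was liver 1 (0.17) and the lowest lymph node 1 (0.032), whereas for *Lef1* lymph node 1 was the highest (0.15) and liver 2 the lowest (0.0070). In thinned cells the means were 0.025 for *Tcf7* and 0.050 for *Lef1*, with values below 0 in some libraries, and *Sox4* reached 0.19 in liver library 1, where 2 thinned cells had a *Sox4* UMI. Among the 7 factors, no pair had a mean above 0.030 in thinned cells (*Lef1* with *Satb1*), and *Tcf7* with *Lef1* was at 0.020 (range -0.021 to 0.070).

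**Figure D4:**
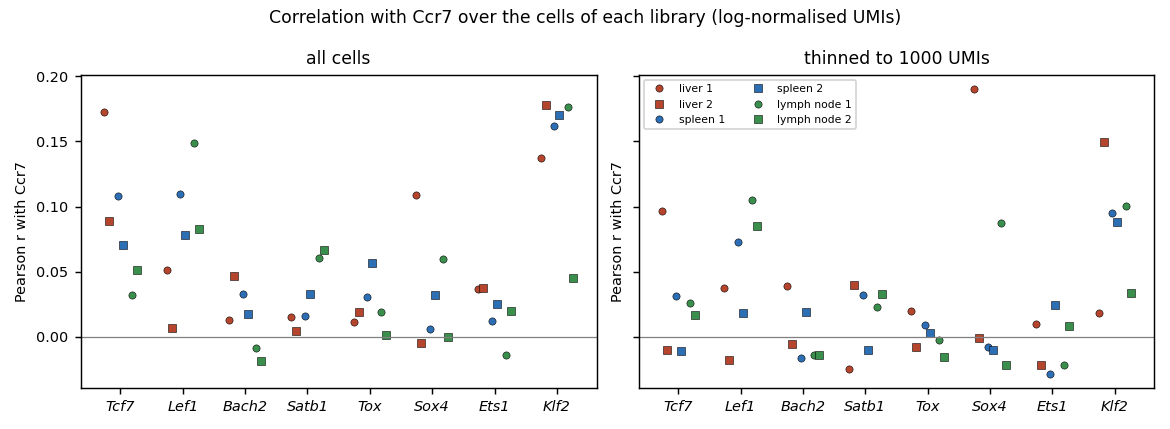
Pearson correlation of each factor, and of *Klf2*, with *Ccr7* over the cells of each library, in all cells (left) and in cells thinned to 1000 UMIs (right). Points are libraries (circles replicate 1, squares replicate 2). Means of 0.087 (*Tcf7*) and 0.080 (*Lef1*) at full depth go to 0.025 and 0.050 in thinned cells.

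The genes whose cell-to-cell pattern was most like that of each were sought among 1848 genes detected in at least 5% of thinned cells of every library, by the mean Pearson correlation over the 6 libraries. For *Tcf7* these were *mt-Atp6* (0.056), *S100a6* (0.045), *mt-Co3* (0.043), *Ramp1* (0.040) and *mt-Co1* (0.040), of which *S100a6* and *mt-Co3* were below 0 in at least 1 library. For *Lef1* they were *Klf2* (0.061, range 0.015 to 0.10), *Ms4a4b* (0.041), *Izumo1r* (0.039), *Prkcq* (0.036) and *Tspan32* (0.035), of which *Ms4a4b* and *Izumo1r* were below 0 in at least 1 library. At the other end, and named after the values were seen, stood the cytotoxic granule gene *Nkg7* for *Tcf7* (-0.075) and the chemokine receptor gene *Cxcr6* for *Lef1* (-0.051, range -0.12 to 0.017).

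The 19 cells with B cell or myeloid markers were looked at for background, although such cells may express some of these genes themselves. They carried *Tcf7* in 0 cells, which with an exact binomial 95% limit allows up to 17.6%. *Tox* and *Sox4* were also in 0, *Lef1* in 1, *Satb1* in 2 and *Ets1* in 8 (42.1%). *Bach2* was in 3 (15.8%, against 1.65% to 4.25% of the cells of a library) and *Ccr7* in 5 (26.3%, against 1.01% to 4.02%). In thinned iNKT cells a *Tcf7* UMI was found in 4.39% and 3.05% of liver, 6.46% and 6.23% of spleen and 11.6% and 11.9% of lymph node cells (14.6% and 9.51%, 13.0% and 11.8%, and 18.2% and 16.9% unthinned). The limit of 17.6% lay above all of these shares except the 18.2% of unthinned lymph node library 1. The 19 cells were thus too few to set a background level below the other shares.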

How the data were processed

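Single-cell RNA was measured in 6 libraries, 2 each from liver, spleen and lymph node. The authors processed reads with Cell Ranger 3.1.0 against mm10. The deposited matrices hold raw UMI counts per gene and barcode without normalization, and the deposited gene and barcode lists hold other values (identifiers and symbols). Per the labels the molecule was nuclear RNA, although whole cells were sorted, and this was left unresolved.

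Barcodes with under 300 or over 4000 genes or over 15% mitochondrial UMIs, the limits of the study, were left out (55 of 16587). No doublet caller was run. An alternative left out the 2% of cells with the most genes. Ribosomal protein, ribosomal RNA and haemoglobin genes were left out (121 genes, 23.4% to 34.5% of UMIs). UMIs were summed per library, since cells are not replicates, and tested in R 4.3.3 with edgeR 4.0.16 (filterByExpr at a minimum count of 10, TMM, robust glmQLFit and glmQLFTest), with Benjamini-Hochberg adjustment over all genes tested and calls below 0.05. All 6 libraries entered 1 fit for the organs. The *Ccr7* and type 17 comparisons had library as a block, and the organ difference in the *Ccr7* relation was an interaction. Spread was estimated over genes together, so very small p-values from few libraries do not measure a gene's own spread. Sums under 10 cells were not used, which removed the liver from the type 17 comparison. That minimum was set after the numbers of cells were seen. Intervals on shares of cells are exact binomial and cover counting error only. DESeq2 1.42.0, limma 3.58.1, numpy 2.4.6, scipy 1.17.1, pandas 2.3.3 and Python 3.11.15 were also used. The scripts were tested on simulated counts.

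The 7 factors and all lists were chosen with earlier results of these data known. Named genes were the 7 factors, *Ccr7*, the 5 genes most like *Tcf7* and *Lef1*, and from each list up to 3 called genes with the largest change per comparison. Some results that this rule would name are not reported here. Alternatives varied the test, scaling, filter, depth, cells and libraries.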

Additional observations from a re-analysis of the deposited data

Results flagged for a closer look

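The relation of *Tcf7* to *Ccr7* differed between organs by a test of the difference itself, an interaction of *Ccr7* status and organ in edgeR. The log2 change of *Tcf7* in cells with a *Ccr7* UMI was larger in liver than in lymph node by 1.60 (adjusted p = 3.9e-06) and larger in liver than in spleen by 1.07 (adjusted p = 0.047), over 2 libraries per organ. The liver values rest on 47 and 29 cells with 63 and 25 UMIs of *Tcf7*, and the deeper sampling of these cells (medians of 6156 and 5262 UMIs) differed from that in spleen and lymph node. In thinned cells the differences were 1.89 and 2.28 and not called, with 13 *Ccr7* cells (5 UMIs of *Tcf7*) from liver library 1 alone. Liver library 2, not used there, had 0 UMIs of *Tcf7* in its 9 thinned *Ccr7* cells. The part of depth was thus not tested. The difference from spleen was called in only 3 of 11 alternatives (0.98 to 2.28, adjusted p 0.024 to 1), not by DESeq2, without the filter, in thinned cells or in 5 of the 6 fits with 1 library left out, and the difference from lymph node in 10 of 11.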

How the results depend on the processing

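Of 263 values of called changes of the 7 factors under the alternatives, 230 kept direction and side of the threshold, 30 lost the call and 3 changed sign; of 223 values of changes that were not called, 205 stayed so, 12 became called and 6 changed sign. *Lef1* was called in 17 of 17 settings for liver against spleen, 11 of 11 for the *Ccr7* split and 9 of 9 for type 17 cells, and *Sox4* in 16 of 16 for each organ comparison. Only cells with a *Ccr7* UMI gave 1, 0 and 0 factors and 79, 243 and 115 genes called (liver against spleen, liver against lymph node, spleen against lymph node), with changed signs for *Tcf7* (0.32 and 0.25), *Tox* (-0.22), *Ets1* (0.10) and *Satb1* (-0.0092); cells without *Ccr7* UMIs and with few type 17 markers gave 3 factors and 1221 genes in spleen against lymph node, and -0.12 for *Bach2* in liver against lymph node. DESeq2 called 1438 genes in liver against spleen, 1137 in spleen against lymph node, 431 for the *Ccr7* split (2 factors, as without TMM and without the filter) and 344 for type 17 cells (1 factor). In thinned cells 1608 genes were called in liver against spleen, 47 for the *Ccr7* split (*Bach2* -0.34, *Tox* -0.23) and 378 for type 17 cells (3 factors, *Tox* 0.25). The *Ccr7* relation, whose alternatives were chosen after seeing the data, differed between liver and spleen for 0 factors under DESeq2, without the filter and in thinned cells (3, 8 and 6 genes). Between liver and lymph node it gave 0 factors in thinned cells (19 genes under DESeq2, 13 thinned), and between spleen and lymph node 6 and 4 genes. A split of cells by several genes together is not reported here. *Tcf7* in thinned cells was -0.0041 within spleen and -0.38 for spleen against lymph node, and *Lef1* for the latter ranged from -0.33 to 0.051 with 1 library left out (0.040 without spleen replicate 2, 0.051 without lymph node replicate 1). Thinned correlations with *Ccr7* were 0.025 (*Tcf7*), 0.00095 (*Tox*) and -0.0048 (*Ets1*). The cause of these changes was not tested.

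Leaving out each library in turn gave 1379 to 2419, 2403 to 4053 and 1017 to 1943 genes called between organs (3, 3 to 5 and 3 to 5 factors), 481 to 693 for the *Ccr7* split (1 to 2 factors), 307 to 1267 for type 17 cells (2 to 6 factors), and 6 to 17, 26 to 54 and 8 to 22 for the organ differences in the *Ccr7* relation (0 to 1, 1 and 0 factors). A lone library was assumed to vary like the other groups. Same-numbered libraries deviated together by correlations of 0.068 to 0.086. With 2 libraries per organ, these values cannot show whether same-numbered libraries share mice or a batch. With the replicate block, 3069, 4175 and 2142 genes and 3, 5 and 5 factors were called, against 2646, 3845 and 1867 genes without it. Depth limits *Sox4* and *Bach2* most, with 8 and 46 UMIs in their lowest libraries.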
